A study of Mus musculus with 12 samples.

Results

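The genes described here encode the enzymes of V(D)J recombination and of the pathway that rejoins the broken DNA. They are the recombinase subunits Rag1 and Rag2, the nucleotide-adding polymerase Dntt, and 7 factors of non-homologous end joining, namely Xrcc5, Xrcc6, Prkdc, Dclre1c, Xrcc4, Lig4 and Nhej1. They were chosen by symbol for their function. All 10 were found among the 24015 gene symbols of the deposited expression tables.

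V(D)J recombination builds antibody and T cell receptor genes in developing lymphocytes by cutting and rejoining gene segments. RAG1 and RAG2 cut the DNA together, Ku (Xrcc5 and Xrcc6) and DNA-PKcs (Prkdc) hold the ends, Artemis (Dclre1c) opens their hairpins, TdT (Dntt) adds untemplated nucleotides, and XRCC4, ligase IV and XLF (Nhej1) seal the joint. The recombinase and TdT are restricted to developing lymphocytes, whereas end joining serves breaks in all cells and, in activated mature B cells, class switch recombination.

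RNA was sequenced from primary mouse B cells of wild-type (WT) animals and of littermates labelled T58A, in which a threonine of MYC that is phosphorylated before the protein is degraded is replaced with alanine. Bone marrow B cells, called immature in the series design, were cultured for 48 h with IL7, a cytokine on which mouse B cell precursors depend, and spleen B cells were cultured for 48 h with LPS, a bacterial activator of mature B cells. Each of these 4 groups (IL7 WT, IL7 T58A, LPS WT and LPS T58A) held 3 libraries, and all were grown in RPMI with serum. The titles number a WT and a T58A culture as a pair. Age, the number of T58A alleles, the sorting of the cells and the number of mice behind a library are not given in the sources used here, so the spread between libraries may be technical in part.

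Between 8486753 and 10201113 reads fell on genes in each IL7 library, and between 5110746 and 9332410 in each LPS library. All 8 B lineage markers examined, among them Cd79a and Pax5, had reads in each group. Xist and 4 Y-linked genes showed WT 1 and WT 2 to be female in each culture, and the remaining libraries to be male, so that sex differed within pairs 1 and 2 and was shared within pair 3. IL7 WT 2 stood apart, because it also held male reads (31.7 normalised reads of the Y-linked Kdm5d). All 10 members are autosomal, and the calls of members in IL7 cultures are also given without pair 2.

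The sequences before the start sites of the 3 members that passed the test in IL7 cultures are shown first, because they let the changed genes be compared at the sequence level. Each run is the 250 bases before a RefSeq start site on GRCm38.p6, printed 5′ to 3′ on the strand of the gene. Capitals mark matches to any of 4 motifs searched on both strands, which were CACGTG (the E-box that MYC with MAX binds), CAGGTG (an E-box bound by E proteins), GTAAACA (bound by forkhead factors such as FOXO1) and GCGGGAA (bound by E2F factors). These motifs do not overlap each other. The Rag1 run lies at chr2:101649533-101649782 on the minus strand, the Rag2 run at chr2:101624462-101624711 on the plus strand and the Xrcc5 run at chr1:72307171-72307420 on the plus strand.
Rag1: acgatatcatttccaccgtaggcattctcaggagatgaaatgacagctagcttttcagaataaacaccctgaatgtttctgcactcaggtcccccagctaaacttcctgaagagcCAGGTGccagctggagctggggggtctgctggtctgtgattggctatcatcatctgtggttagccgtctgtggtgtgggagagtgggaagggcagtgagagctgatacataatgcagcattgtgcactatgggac
Rag2: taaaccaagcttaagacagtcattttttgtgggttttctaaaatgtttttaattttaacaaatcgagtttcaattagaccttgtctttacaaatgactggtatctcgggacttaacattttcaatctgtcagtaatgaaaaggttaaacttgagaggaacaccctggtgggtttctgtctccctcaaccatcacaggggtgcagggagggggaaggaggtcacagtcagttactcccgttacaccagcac
Xrcc5: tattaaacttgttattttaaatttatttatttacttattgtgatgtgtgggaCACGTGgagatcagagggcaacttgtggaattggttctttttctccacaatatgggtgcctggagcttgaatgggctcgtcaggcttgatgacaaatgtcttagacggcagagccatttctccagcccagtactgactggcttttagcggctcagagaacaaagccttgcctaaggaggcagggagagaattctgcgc

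Rag1 held CAGGTG, starting 135 bases before its start site, and Xrcc5 held CACGTG, starting 198 bases before. Rag2 held none of the 4 motifs in this stretch. The RefSeq table held 10 windows for 9 of the 10 members, and among these GCGGGAA was found in Xrcc4 and Xrcc6 and GTAAACA in none. Over all 32851 windows of 300 bases in the RefSeq table, CAGGTG was present in 20.2%, CACGTG in 7.15%, GCGGGAA in 4.60% and GTAAACA in 3.65%. A match describes the letters only, and binding was not examined here.

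In IL7 cultures the transcripts of both recombinase subunits were lower in T58A cells, and of the 7 end-joining genes Xrcc5 alone passed the test, in the opposite direction. Rag1 fell by 0.78 and Rag2 by 0.84 on the log2 scale, Xrcc5 rose by 0.31, and the other 7 members did not pass the test. Values are normalised reads, meaning read counts that the authors divided by a size factor for each library. The test was limma on log2 of the normalised reads plus 1 with the pair as a block, at a Benjamini-Hochberg adjusted p under 0.05 over all 11604 genes tested. All 10 members had enough reads to be tested. Of them 3 were called, beside 12.7% of all genes tested. Of the members 2 were lower, beside 6.31% of all genes, and 1 was higher, beside 6.41%. The median log2 change was -0.17 over the 10 members and -0.01 over all genes tested.

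**Figure D1:**
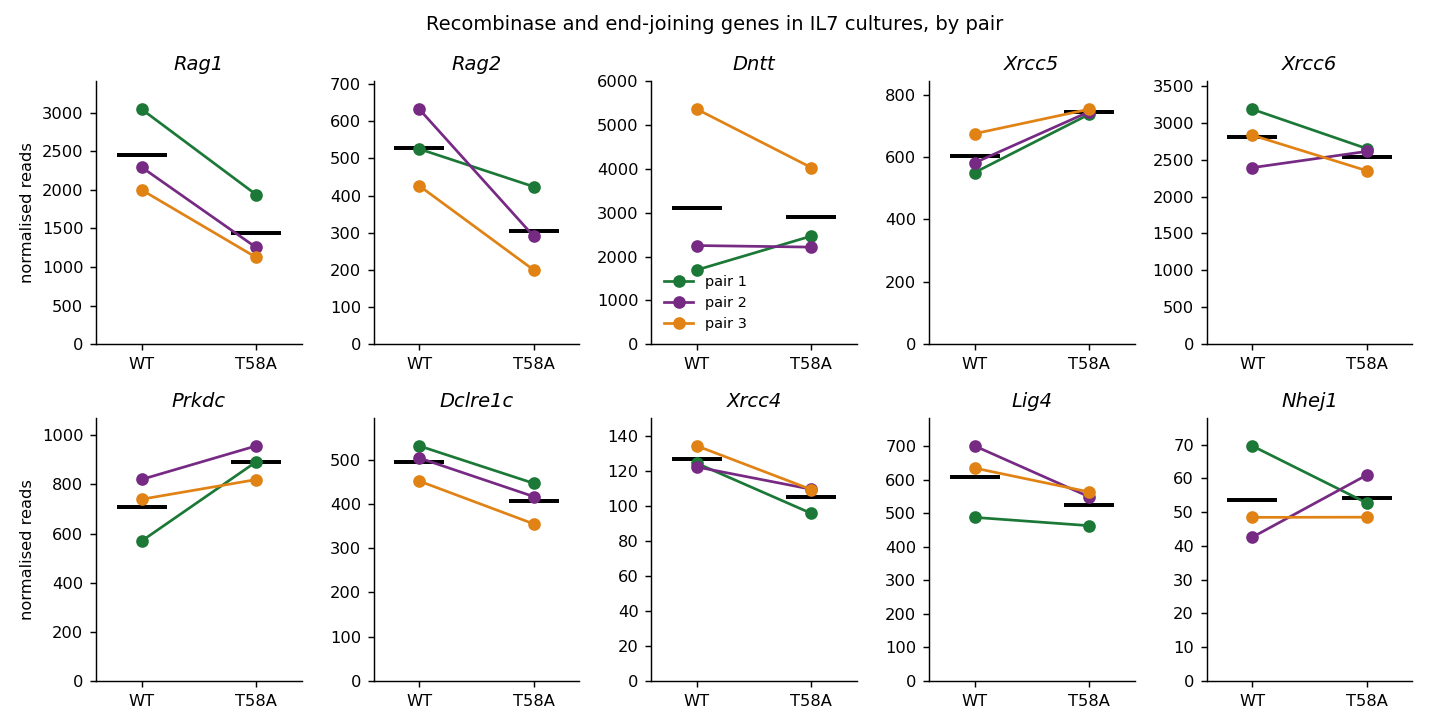
Normalised reads (vertical axis, starting at 0) of each of the 10 genes in the 6 IL7 libraries, with a line joining WT and T58A of each pair and a black bar at each group mean. Rag1 and Rag2 descended in all 3 pairs and Xrcc5 ascended in all 3, whereas the Dntt, Xrcc6 and Nhej1 lines ran in different directions.

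Rag1, at chr2:101638282-101649501 on the minus strand, encodes the subunit that carries the active site of the recombinase. It was read at 3045, 2293 and 2000 in WT 1, 2 and 3 and at 1940, 1255 and 1126 in T58A 1, 2 and 3. The highest T58A library lay below the lowest WT library, and within the pairs the log2 change was -0.65, -0.87 and -0.83. The group means were 2446 ± 539 in WT and 1440 ± 437 in T58A (SD, n = 3). The fitted log2 change was -0.78 ± 0.07 (SE; limma adjusted p = 0.00219), a level in T58A of 0.581 times that in WT. In the order of p, Rag1 ranked 11 among the 11604 genes.

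Rag2, the neighbouring gene on the opposite strand at chr2:101624718-101632529, encodes the subunit that completes the recombinase and reads a methylated histone. It was read at 525, 632 and 426 in WT 1, 2 and 3 and at 424, 290 and 200 in T58A 1, 2 and 3. The groups did not overlap, but only by the narrow gap between WT 3 and T58A 1. The change was smaller in pair 1, at -0.31, than in pairs 2 and 3, at -1.12 and -1.09. Rag2 went from 528 ± 103 to 305 ± 113 (SD, n = 3). Its fitted log2 change was -0.84 ± 0.15 (SE; limma adjusted p = 0.0135).

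Rag1 was the more abundant subunit transcript in every IL7 library. Per length, it stood at 3.00, 1.88 and 2.43 times the level of Rag2 in the WT libraries and 2.37, 2.24 and 2.92 times in the T58A libraries, so the ranges overlapped. Over the 6 IL7 libraries, the Pearson correlation of their log2 values was 0.91, a description of points that share pairs and a group difference.

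The calls of the recombinase genes depended on the pair. Without the block, limma called 0 of the 11604 genes, 0.0% of them, with 1960 at an unadjusted p under 0.05, edgeR also called 0 and DESeq2 called 309, or 2.66%. The limma adjusted p was then 0.188 for Rag1 and 0.207 for Rag2, and by DESeq2 it was 0.0199 and 0.0539. Without pair 2, whose WT library held male reads, Rag1 changed by -0.74 (limma adjusted p = 0.00422) and Rag2 by -0.70 (limma adjusted p = 0.0445), in a fit that called 6.67% of all genes. With sex as a further term, a fit that rests on pair 3 and has 1 residual degree of freedom, limma called 42 genes in all, or 0.362%. Rag1 was among them at -0.83 (limma adjusted p = 0.0464), and Rag2 was not, at -1.09 (limma adjusted p = 0.134). In the authors' deposited table the log2 change was -0.73 for Rag1 (adjusted p = 5.09e-13) and -0.66 for Rag2 (adjusted p = 0.000313).

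Dntt, at chr19:41029275-41059525 on the plus strand, encodes TdT and is expressed with the recombinase in early precursors. The libraries held 1697, 2253 and 5364 normalised reads in WT 1, 2 and 3 and 2469, 2217 and 4031 in T58A 1, 2 and 3. Both libraries of pair 3 were higher than the other 4, and the WT range enclosed the T58A range. The change was 0.54 within pair 1, -0.02 within pair 2 and -0.41 within pair 3. The log2 change over the pairs was 0.04 ± 0.15 (SE), with an interval from -0.30 to 0.37 and a limma adjusted p of 0.899. Its sign turned to -0.22 without pair 1 and to -0.41 with sex as a further term.

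Among the genes that bind broken ends, Xrcc5, which encodes the Ku80 subunit of the Ku ring, was higher in T58A cells. It lies at chr1:72307421-72394952 on the plus strand. Its normalised reads were 550, 581.5 and 675 in WT 1, 2 and 3 and 737, 745 and 753 in T58A 1, 2 and 3. Every T58A library lay above every WT library, and the T58A libraries lay close together. The level went from 602 ± 64.8 to 745 ± 8.18 (SD, n = 3). The fitted log2 change was 0.31 ± 0.08 (SE; limma adjusted p = 0.0447). This call was close to the threshold and was lost without the block (limma adjusted p = 0.214) and with total-count scaling (0.0588). It was also lost without pair 1 (0.0815), without pair 2 (0.158) and without pair 3 (0.0592), and with sex as a further term (log2 change 0.16, limma adjusted p = 0.784). With the pair as a block, the adjusted p was 0.05002 by edgeR, which called 12.3% of all genes, and 0.115 by DESeq2, which called 8.88%, so neither called it. It was 0.109 in the authors' deposited table.

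Xrcc6, at chr15:81987835-82040085 on the plus strand, encodes Ku70, the partner of Ku80, and had a negative estimate. Its normalised reads were 3183, 2391 and 2831 in the WT libraries and 2650, 2612 and 2350 in the T58A libraries, and the groups overlapped. The log2 change was -0.14 ± 0.09 (SE) with an interval from -0.33 to 0.06 (limma adjusted p = 0.333), and it was positive in pair 2 alone, at 0.13.

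Prkdc, at chr16:15637866-15842235 on the plus strand, encodes DNA-PKcs, the kinase that Ku recruits. Its normalised reads were 570, 821 and 740 in the WT libraries and 892, 957 and 820 in the T58A libraries. The groups met at WT 2 and T58A 3, whose values were nearly equal, and T58A was higher in each of the 3 pairs. Its log2 change was 0.34 ± 0.10 (SE) and missed the threshold (limma adjusted p = 0.0659). Its start lies 466 bases from that of Mcm4, a replicative helicase gene on the opposite strand, which was read at 3826 in WT and 4307 in T58A and changed by 0.17 ± 0.07 (limma adjusted p = 0.121). The start of Xrcc4 lies 485 bases from that of Tmem167, and the start of Lig4 lies 21 bases from that of Abhd13. Within pairs 1, 2 and 3 Tmem167 changed by 0.12, 0.10 and 0.12 and Abhd13 by 0.08, -0.03 and 0.08. Xrcc4 and Lig4 were lower in each of these pairs.

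Dclre1c, at chr2:3424131-3464130 on the plus strand, encodes Artemis, the nuclease that opens the hairpins left by RAG. It stood at 531, 504 and 451 in WT 1, 2 and 3 and at 446, 417 and 355 in T58A 1, 2 and 3. All T58A libraries lay below all WT libraries, with little room between WT 3 and T58A 1, and the 3 pairs differed by similar amounts of -0.25, -0.27 and -0.35. The log2 change of -0.29 ± 0.08 (SE) missed the threshold (limma adjusted p = 0.0574) and passed it with total-count scaling (0.0471). Over the 6 IL7 libraries its log2 values had a Pearson correlation of 0.95 with those of Rag1 and of 0.95 with those of Rag2, again as a description.

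The ligation genes were called in neither direction. Xrcc4, at chr13:89774027-90089608 on the minus strand, encodes the scaffold of ligase IV and was read at 124, 122 and 134 in WT and 95.7, 110 and 109 in T58A. These groups did not overlap, and the log2 change was -0.28 ± 0.14 (SE, limma adjusted p = 0.229). Lig4, at chr8:9969049-9977686 on the minus strand, encodes the ligase that seals the joint. It was read at 487, 700.2 and 634 in WT and 463, 549 and 563 in T58A, with overlapping groups, a lower T58A value in each pair and a log2 change of -0.20 ± 0.09 (SE, limma adjusted p = 0.166). Nhej1, at chr1:74967139-75125200 on the minus strand, encodes XLF, which bridges XRCC4 and ligase IV across the ends. It had the fewest reads of the members, 69.6, 42.6 and 48.4 in WT and 52.7, 61.0 and 48.5 in T58A. Its groups overlapped, and its log2 change of 0.04 ± 0.23 (SE) had an interval from -0.48 to 0.56 (limma adjusted p = 0.931).

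In all, the groups did not overlap for Rag1, Rag2, Dclre1c and Xrcc4, which lay lower in T58A, and for Xrcc5, which lay higher. Over all genes tested, every T58A library lay below every WT library in 10.8% and above it in 12.9%. In each of the 3 pairs T58A was lower for Rag1, Rag2, Dclre1c, Xrcc4 and Lig4 and higher for Xrcc5 and Prkdc. The share of all genes tested with the same direction in all 3 pairs was not computed. The agreement of the pairs is therefore a description of these members only.

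**Figure D2:**
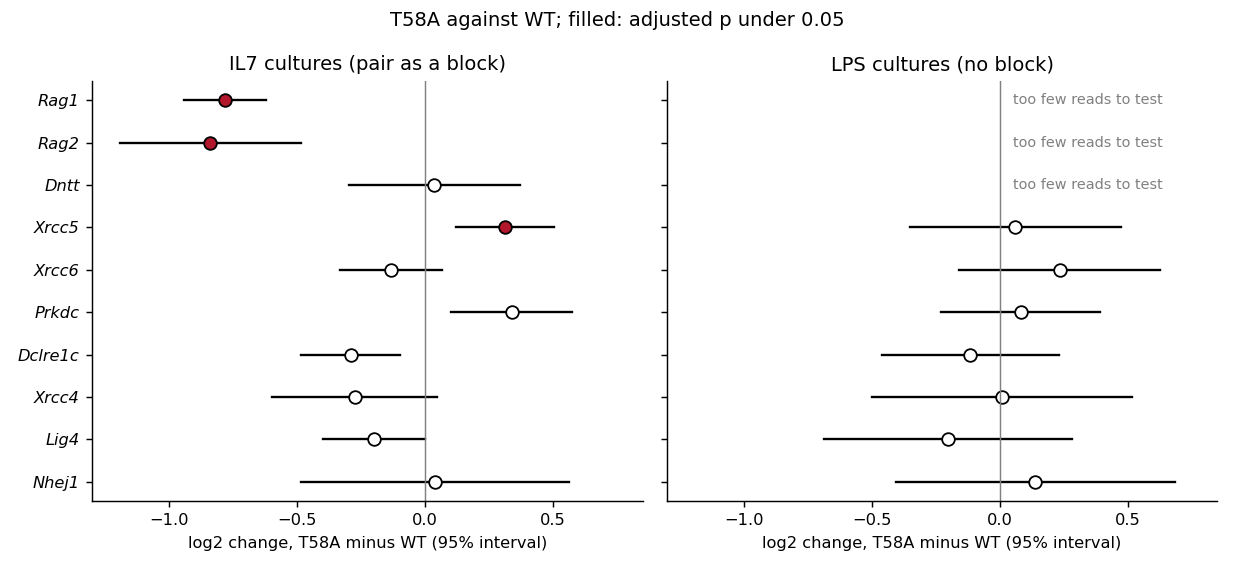
Log2 change, T58A minus WT, for each gene (horizontal axis) with its 95% interval from limma, in IL7 cultures with the pair as a block (left) and in LPS cultures without a block (right). Filled points have an adjusted p under 0.05. In IL7 cultures Rag1 and Rag2 lie left of 0 and Xrcc5 right of it, and in LPS cultures all 7 intervals include 0.

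The lower Rag1 and Rag2 levels stood beside lower levels of other B lineage genes. Of 8 B lineage markers, 5 fell in IL7 T58A cultures, beside 6.31% of all genes, and none rose, with a median log2 change of -0.41. Without pair 2 the call of Cd22 was lost and 4 fell, beside 429 of all 11604 genes tested. Without the block or with sex as a further term (median -0.24) none of the 8 was called. Their summed level, in counts scaled to the library total (CPM), was 6321, 4487 and 4013 in WT 1, 2 and 3 and 4201, 3630 and 3292 in T58A 1, 2 and 3, lower in T58A in each pair with ranges that overlapped. The part of this in the Rag1 and Rag2 result was not tested. The 12 myeloid markers together held 69.6 to 249 CPM in WT and 41.4 to 103 in T58A, and all 12 had reads in each IL7 group. None of the 10 tested passed (median -0.97). However, 6 fell without pair 2, beside 429 of all 11604 genes tested. With sex as a further term 5 fell, beside 29 of all 11604. The myeloid sum was 143, 69.6 and 249 CPM in WT 1, 2 and 3 and 90.9, 103 and 41.4 in T58A 1, 2 and 3. Its part in the Rag1 and Rag2 result was not tested either. In bulk RNA, fewer cells of a type and less of a transcript per cell cannot be told apart.

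Genes of the same steps were read from lists chosen for function. Of 12 tested genes that mark stages of B cell development, 6 fell, beside 6.31% of all genes, and none rose. Blnk, Cd79b and Cd79a were called here and among the B lineage markers, so the counts of these lists share genes. Their median log2 change was -0.35. Il2ra, the CD25 chain that appears on precursors after heavy chain rearrangement, went from 341 to 218 normalised reads (-0.64 ± 0.10, SE, limma adjusted p = 0.00831). Also lower were the pre-B cell receptor signalling genes Cd79b (-0.53 ± 0.10) and Blnk (-0.39 ± 0.07) and the phosphatase Ptprc (-0.44 ± 0.08). Igll1, a surrogate light chain gene chosen after its values were seen, was at 7636 and 7484, a log2 change of -0.02. Of the listed Vpreb genes, also added after their values were seen, Vpreb3 was called lower. Within pairs 1, 2 and 3 Vpreb3 changed by -0.56, -0.26 and -0.31 and Vpreb1 by -0.14, -0.15 and -0.28. Vpreb2 changed by -0.24, 0.10 and -0.35 there. With pair 2 left out, 5 of the 12 fell, beside 429 of all 11604 genes tested. Without the block or with sex as a further term none of the 12 was called.

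Of 22 transcription factors that act on the Rag locus or on the precursor stage, 3 fell and none rose. Among all genes tested, 6.31% were called lower and 6.41% higher. Foxo1, an activator of Rag transcription, went from 2315 ± 344 to 1676 ± 242 (SD, n = 3), a log2 change of -0.47 ± 0.08 (SE, limma adjusted p = 0.0101). Foxo1 was read at 2659, 1970 and 2314 in WT and 1717, 1416 and 1895 in T58A, so the groups did not overlap. The Ets family factor Spib changed by -0.41 ± 0.08 (limma adjusted p = 0.0158) and the forkhead factor Foxp1 by -0.25 ± 0.07 (limma adjusted p = 0.0416). The median of the 22 was -0.05. With pair 2 left out Foxo1 alone passed, and without the block or with the sex term none did.

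Of 9 genes for turnover of RAG protein and for its cofactors, 2 rose, beside 6.41% of all genes, and 1 fell, beside 6.31%. Ddb1 and Vprbp, which belong to the ubiquitin ligase that binds RAG1, changed by 0.37 ± 0.06 (limma adjusted p = 0.0102) and 0.26 ± 0.07 (limma adjusted p = 0.0496). Hmgb2, a DNA-bending protein that assists RAG cutting, changed by -0.28 ± 0.07 (limma adjusted p = 0.0430). The median was 0.00, and with pair 2 left out Ddb1 alone passed. Without the block or with sex as a further term none of the 9 was called.

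None of the 8 end-processing genes beside the classical factors was called. Polm, a polymerase related to TdT, changed by -0.58 ± 0.17 (SE, limma adjusted p = 0.0560). In the other break repair lists the counts called higher were 1 of 12, 1 of 6, 1 of 12 and 3 of 9, beside 6.41% of all genes, and none was called lower. Among 12 break sensing genes Rad50, of the MRN complex that binds ends, rose by 0.34 ± 0.08. Among 6 alternative end-joining genes Lig3, a ligase of that route, rose by 0.41 ± 0.07 (limma adjusted p = 0.0101). Among 12 homologous recombination genes Brca2, a mediator of that route, rose by 0.46 ± 0.12 (limma adjusted p = 0.0447). Among 9 tested class switch genes 3 rose, among them the nuclease Exo1 (0.47 ± 0.09) and the endonuclease Apex1 (0.30 ± 0.07). The list medians were -0.11, 0.09, 0.19, 0.14 and 0.21 in this order, beside -0.01 over all genes. Without pair 2 the Rad50, Lig3, Brca2 and Exo1 calls held, the other class switch calls, Apex1 included, were lost, and Polm was called lower. Without the block or with sex as a further term none of the genes of these lists was called.

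**Figure D3:**
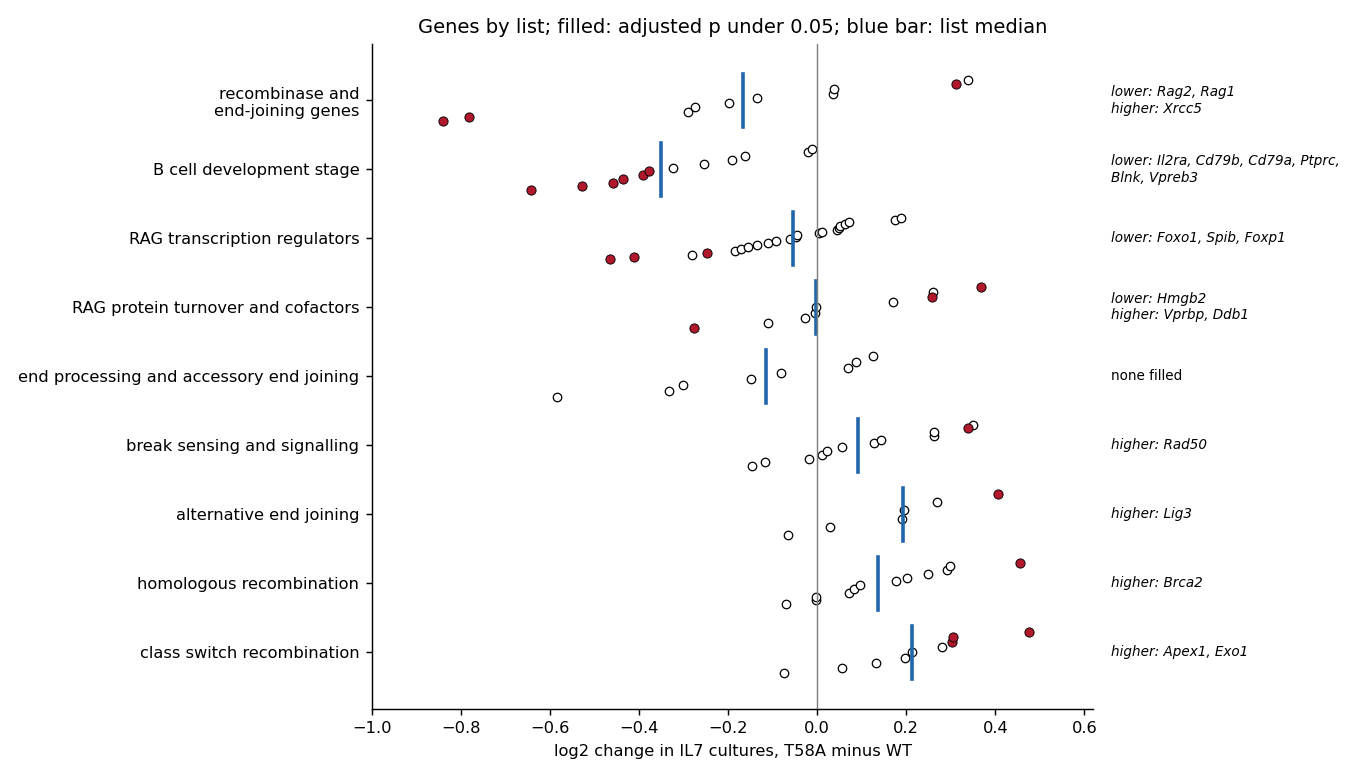
Log2 change in IL7 cultures, T58A minus WT (horizontal axis), for each tested gene of the recombinase and end-joining set and of 8 lists of related function (rows). Filled points have a limma adjusted p under 0.05 with the pair as a block and are named at the right except for 1 class switch gene, and a blue bar marks each list's median. Called genes lie left of 0 in the development and regulator lists. The 1 called gene in each of the break sensing, alternative and homologous lists and the 3 in the class switch list lie right of 0.

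The genes whose log2 values followed Rag1 most closely over the 6 IL7 libraries, among 9400 genes with a mean of at least 50 normalised reads, were Trp53inp1, Coq10a, Whamm, Cds2 and H2-Eb2, with Pearson correlations of 0.997 down to 0.989. For Rag2 they included Gsn, Acvr1b, Il17ra and Slx1b, at 0.991 to 0.982. For Dntt they were Psme2, Gng12, Frmd6, Impdh1 and Mpzl2, at 0.998 to 0.988. The sets did not share a gene. With 6 points drawn from 9400 genes these values describe the libraries and carry no test.

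Some reads could belong to overlapping genes, because the library kit does not keep the strand. B230118H07Rik shares 80 exon bases with Rag1, 1.21% of its exon length, and 208 with Rag2, 6.08%. It was read at 42.3 in WT and 38.7 in T58A and changed by -0.11 ± 0.25 (limma adjusted p = 0.796). Shared exon bases were 7.69% of Xrcc6 (with Desi1), 3.83% of Dclre1c (with Suv39h2) and 2.66% of Xrcc4 (with Tmem167).

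In LPS cultures the recombinase and TdT genes were nearly silent, and no end-joining gene was called. Rag1 had 6 reads over the 3 WT libraries and 15 over the 3 T58A libraries. Per library the normalised reads were 5.49, 0.864 and 0.983 in WT 1, 2 and 3, and 10.8 and 1.43 in the 2 T58A libraries whose header does not tell them apart and 3.91 in T58A 3. Rag2 had 1 read, in WT 2, and none in T58A, where 3 reads per library is the limit that a count of 0 allows, from 2.15 to 3.60 normalised reads. Dntt had 6 reads in WT and 8 in T58A. These 3 genes did not reach the minimum count for the test, so the T58A effect on them in LPS cultures was not detectable at this depth.

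The remaining 7 members were tested among 11291 genes without a block, since the table header gives no pair number for 2 of the T58A columns. Limma called 0 genes, 0.0% of those tested, with 284 at an unadjusted p under 0.05, while edgeR called 0 and DESeq2 1, or 0.00886%. All 7 overlapped between the groups, where 3.1% of all genes lay higher in every T58A library and 3.3% lower, and the adjusted p was 1 for each. Xrcc6 was read at 554, 610 and 492 in WT and at 792 and 588 in the unnumbered T58A libraries and 582 in T58A 3, where a single T58A library was high. Its log2 change was 0.23 ± 0.17 (SE), with an interval from -0.16 to 0.63. Xrcc5 was at 315, 278 and 340 in WT and 391, 271 and 319 in T58A in the same order, a change of 0.06 ± 0.18.

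Prkdc was the least variable, at 632, 701 and 715 in WT and 691, 736 and 738 in T58A, with an interval of the change from -0.23 to 0.39. Dclre1c was at 430, 420 and 362 in WT and 377, 399.98 and 341 in T58A, with an interval from -0.46 to 0.23. Xrcc4 was at 169, 124 and 153 in WT and 191, 140 and 122 in T58A, with an interval from -0.50 to 0.52. Lig4 was at 128, 119 and 144 in WT and 115, 90.3 and 138 in T58A, with an interval from -0.69 to 0.28. Nhej1 was at 41.2, 42.4 and 45.2 in WT and 49.2, 42.3 and 50.8 in T58A, with an interval from -0.41 to 0.68. These intervals leave room for changes as large as the one of Xrcc5 in IL7 cultures. None of the genes in the 8 lists of related function was called in LPS cultures. Ung, which removes uracil from DNA in class switching, had the smallest p in its list, at 125 in WT and 191 in T58A and a log2 change of 0.60 ± 0.17 (SE, limma adjusted p = 1). In these cultures the median of the 7 members was 0.06 and that of all genes 0.01. With a pair block that puts the unnumbered columns in header order, 4 genes were called, or 0.0354%, and the smallest adjusted p of a member was 0.349, for Xrcc6. The authors' deposited table called 225 genes in LPS cultures, and the smallest adjusted p of a member there was 0.551, for Xrcc6.

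Whether the T58A effect differed between the cultures was asked with an interaction term in a fit of the 12 libraries, without a pair block. This fit held the 10767 genes with enough reads in both cultures. Limma called 0 genes, 0.0%, with 479 at an unadjusted p under 0.05, while edgeR called 0 and DESeq2 4, or 0.0372%. Rag1, Rag2 and Dntt could not enter it. Xrcc6 had the smallest p of the 7 members, 0.103, with a difference of -0.37 ± 0.21 (SE) and an interval from -0.82 to 0.09 (limma adjusted p = 0.996). For Xrcc5 the difference was 0.25 ± 0.21, with an interval from -0.20 to 0.70. With pairs within each culture as a block and the unnumbered columns in header order, 441 genes were called, 4.1% of those tested, and no member was among them.

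Rag1, Rag2, Dntt, Xrcc5, Xrcc6, Xrcc4 and Lig4 differed more in level between the cultures than between the genotypes. The tables were normalised separately, so levels are given as CPM, and tissue and stimulus change together between the cultures and cannot be told apart. All 6 IL7 libraries lay above all 6 LPS libraries for Rag1, Rag2, Dntt, Xrcc5, Xrcc6 and Lig4, beside 30.4% of all genes compared, and below them for Xrcc4, beside 20.4%. Prkdc, Dclre1c and Nhej1 overlapped. Over 6 libraries each, Rag1 had 11830 reads in IL7 cultures and 21 in LPS cultures, a ratio of CPM of 417 with a counting interval from 273 to 675. For Dntt there were 17865 and 14 reads, a ratio of 946 (563 to 1730), and for Rag2 2536 reads and 1 read, a ratio of 1879 whose interval ran from 337 to 74249. These exact Poisson intervals cover counting error only.

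The end-joining genes differed by less. In WT libraries Xrcc6 was at 302 ± 42.3 CPM in IL7 and 80.5 ± 9.94 in LPS cultures (SD, n = 3), a ratio of 3.75. Lig4 was at 65.4 ± 11.8 and 18.95 ± 1.64, a ratio of 3.45, and Xrcc5 at 64.8 ± 6.63 and 45.3 ± 3.92, a ratio of 1.43. The other WT means were lower in IL7 cultures. Xrcc4 was at 13.7 ± 0.613 in IL7 and 21.6 ± 2.86 in LPS cultures. Prkdc was at 76.5 and 99.5, and its WT libraries did not overlap (61.5 to 88.8 in IL7 and 90.0 to 105 in LPS cultures), although its 6 libraries of each culture did. The WT libraries of Dclre1c, at 53.4 and 58.8, and of Nhej1, at 5.77 and 6.25, overlapped.

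**Figure D4:**
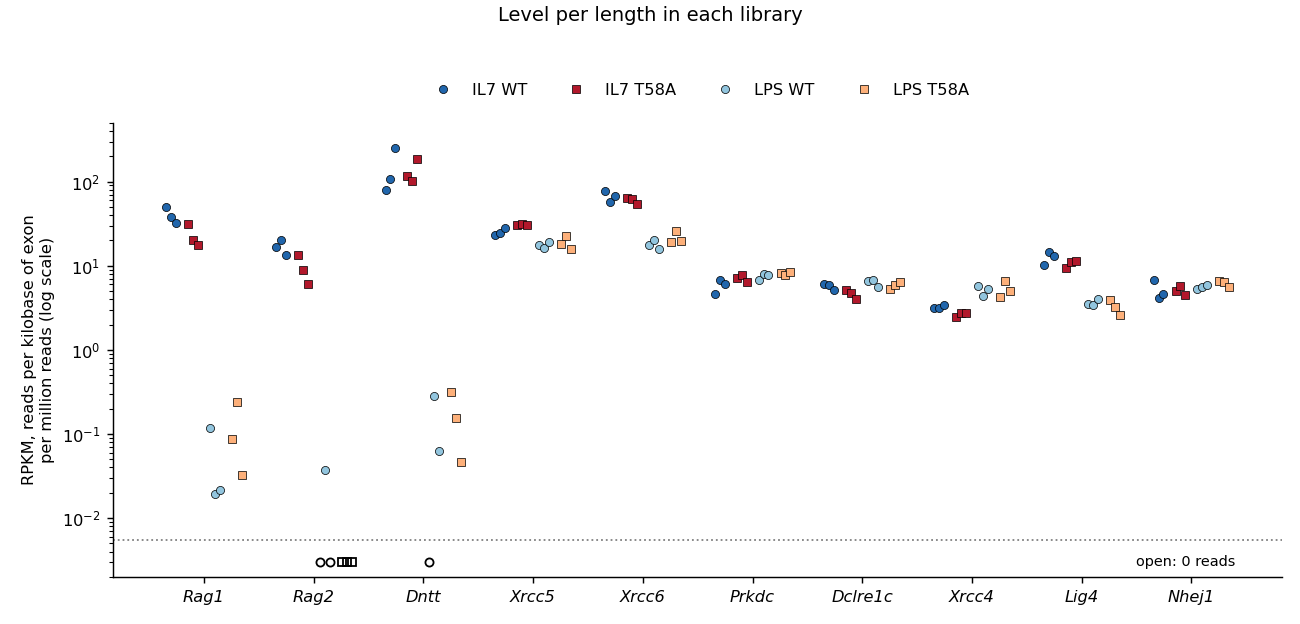
Level per length, in RPKM, which is CPM per kilobase of exon (log scale), of each gene in the 12 libraries, with circles for WT, squares for T58A, dark fill for IL7 and light fill for LPS cultures. Open symbols under the dotted line are libraries with 0 reads. Rag1, Rag2 and Dntt lie above 6 in IL7 and below 1 in LPS cultures, while the 7 end-joining genes lie between 2 and 80 in all libraries.

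Per kilobase of exon, the order of levels in IL7 WT cultures was Dntt (146 ± 91.8), Xrcc6 (67.4 ± 9.45), Rag1 (39.9 ± 8.90), Xrcc5 (25.4 ± 2.60), Rag2 (16.6 ± 3.33), Lig4 (12.6 ± 2.27), Prkdc (5.80 ± 1.05), Dclre1c (5.73 ± 0.493), Nhej1 (5.16 ± 1.37) and Xrcc4 (3.25 ± 0.145), in RPKM (SD, n = 3). Neighbours in this order whose libraries overlapped were Rag2 with Lig4, and Prkdc, Dclre1c and Nhej1 among themselves. In IL7 T58A cultures Xrcc5 (30.9 ± 0.100) stood above Rag1 (23.1 ± 7.28) in the mean, although T58A 1 held more Rag1 than Xrcc5. In LPS WT cultures Xrcc6 (17.99) and Xrcc5 (17.7) led with overlapping libraries, followed by Prkdc (7.55), Dclre1c (6.32), Nhej1 (5.59), Xrcc4 (5.13) and Lig4 (3.64). Of these, Dclre1c overlapped with Nhej1 and Nhej1 with Xrcc4. The order depends on the length used, at the top and below it. With the mean transcript length in place of all exons, Xrcc6 (300.3 in IL7 WT) stood above Dntt (194). Dclre1c (22.1) then stood above Rag2 (21.5) and Lig4 (16.1) in the IL7 WT means. In LPS WT cultures Dclre1c (24.4) then stood above Xrcc5 (17.7), and Xrcc4 (15.1) above Prkdc (12.7).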

How the data were processed

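The authors deposited 1 table for IL7 and 1 for LPS cultures. The submitters' processing notes name bcl2fastq 1.8.4, TopHat2 2.1.0, HTSeq 0.6.1, DESeq2 and mm10, and the labels' protocols name an unstranded TruSeq kit. Each table holds a signal per gene and library, a read count that the authors divided by 1 size factor per library, and the authors' log2 fold change, p-value and adjusted p. Division of each deposited signal by its column's step gave whole reads (within 0.001) for 100% of values. Columns were mapped to samples by their headers, and 0 were left unmapped. A pair of LPS columns carries the same header, T58A2, and these libraries are called unnumbered.

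Genes were kept by filterByExpr of edgeR 4.0.16 on those reads (minimum count 10, minimum total 15) and tested with limma 3.58.1 (trend) in R 4.3.3 on log2 of the signal plus 1, with the pair as a block in IL7 cultures and without it in LPS cultures. A fold change on this scale is understated for low genes. Deviations from the group means correlated by 0.41, 0.15 and 0.40 across genes between IL7 libraries of the same pair and by -0.36 to -0.05 between others, and the titles state the pairs. DESeq2 1.42.0 with the pair gave p-values within 1% of the authors' for 94.0% of IL7 genes. In LPS cultures the share was 99.7% with the unnumbered columns paired in header order, 17.0% with them exchanged and 14.6% with no block, and deviations correlated by 0.34, 0.66 and 0.54 in the header-order pairs. This pairing was read from values and not from headers, so the fit without it was kept and the blocked values stand beside it. CPM and RPKM were computed from the recovered reads, with GENCODE M21 exon lengths. Alternatives were other scalings, filters, pseudocounts, edgeR, DESeq2, the block, sex and leaving libraries out. The fits were tested on simulated data.

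The members, the lists, the markers and the choice of the block in IL7 cultures were made with earlier results of these data known. From each list the text names called genes, at most 4 per direction with the smallest p, and otherwise the 2 with the smallest p (in LPS cultures Ung alone). Igll1, the Vpreb genes and Kit were named outside this rule. A few genes that this rule would name are not reported here. Likeness was ranked among genes with a mean of at least 50 normalised reads, leaving out predicted genes and receptor segments.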

Additional observations from a re-analysis of the deposited data

How the results depend on the processing

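With the pair as a replicate block, limma called 1476 genes in IL7 cultures and 3 of the 10 recombinase and end-joining genes. With no replicate block the count of genes was 0 by limma, 0 by edgeR and 309 by DESeq2, and the count of members 0, 0 and 1. Sex as a further term left 42 genes and 1 member. Leaving out a pair gave 774 to 1425 genes (774 without pair 2) and 2 members each time. In LPS cultures the count was 0, with 1 by DESeq2, 4 with a replicate block in header order, 0 with the unnumbered columns exchanged, and 0 to 4 when a library was left out (4 without WT 3). For the interaction it was 0, with 4 by DESeq2, 441 with the replicate block in header order, 0 exchanged and 0 to 1 when a library was left out. The fits without the block by edgeR and DESeq2 were chosen after seeing the data.

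Rag1 ran from -0.85 to -0.74 and Rag2 from -1.10 to -0.70 over the 15 alternatives, all negative. Xrcc5 ran from 0.16 to 0.39, always positive, and was called in 5 of the 15. Estimates near 0 turned. In IL7 cultures Dntt was -0.10 without the block by edgeR and by DESeq2, -0.41 with sex and -0.22 to 0.26 when a pair was left out, and Nhej1 was then -0.20 to 0.26. In LPS cultures Xrcc5 was -0.077 to 0.19 and Xrcc4 -0.17 to 0.15 when a library was left out. In the interaction Nhej1 was -0.25 to 0.10 and Lig4 -0.16 to 0.15 when a library was left out. Lig4 there was -0.040 with total counts, -0.0037 with a pseudocount of 5, -0.020 by edgeR and -0.012 by DESeq2. The cause was not tested. Where a library was left out, the lone or remaining samples were assumed to vary like the others. Depth limited Rag1, Rag2 and Dntt in LPS cultures to 21, 1 and 14 reads over 6 libraries.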

Other observations

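Kit, the stem cell factor receptor of early precursors, was chosen after its values were seen because it differed between pairs as Dntt did. Its normalised reads in IL7 cultures were 312, 581 and 600.1 in WT 1, 2 and 3 and 599, 461 and 384 in T58A 1, 2 and 3. The log2 change of Kit was 0.94, -0.33 and -0.64 within pairs 1, 2 and 3, beside 0.54, -0.02 and -0.41 for Dntt. Over the pairs Kit changed by -0.01 ± 0.25 (SE, limma adjusted p = 0.983).

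Il2ra, which marks precursors after heavy chain rearrangement, changed by -0.68, -0.66 and -0.60 within the same pairs, a spread narrower than that of Kit or Dntt.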
